A study of Mus musculus with 12 samples.

Results

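Phospholipases A2 cut the fatty acid from the middle position of membrane phospholipids. The 7 genes described here are Pla2g2e and Pla2g2f, which encode secreted enzymes, and Pla2g4a, Pla2g4b, Pla2g4d, Pla2g4e and Pla2g4f, which encode cytosolic enzymes. They were listed by name, with their expression in all 4 groups already known, and their symbols were mapped to Entrez gene numbers. All 7 have values in the tables of both ages, among 19392 genes with values at P36 and 17750 at 6 months. Since the genes were chosen from these measurements, their own differences are given as descriptions of these libraries and support nothing further.

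Epidermis of the back was taken from C57BL/6 mice at postnatal day 36 (P36) and at 6 months. All animals carried floxed alleles of both Vdr, the vitamin D receptor gene, and Med1, which encodes a subunit of the Mediator coactivator complex (VDR fl/fl, Med1 fl/fl). Controls were K14 Cre-/- and the double knockout (DKO) was K14 Cre+/-, in which the keratin 14 promoter drives the recombinase in basal keratinocytes and the cells that descend from them. Each of the 4 groups held 3 libraries of total RNA freed of ribosomal RNA, and the labels do not state whether replicates came from separate animals, so that p-values measure only the spread between these samples. Other cells of the sheet (immune cells, melanocytes) do not use this promoter. The measured unit is FPKM, in which fragments are divided by the length of the transcript and the total of the library, so that levels can be set side by side between genes. The number of reads per library is not known from FPKM, so no counting error is given.

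Secreted phospholipases A2 act outside the cell and cytosolic ones act on internal membranes, most of them after calcium brings them there. The freed fatty acid, arachidonic acid among others, feeds the cyclooxygenases and lipoxygenases that make eicosanoids, and the other product is a lysophospholipid. In skin, the enzyme of Pla2g2f is known from the upper layers of the epidermis, that of Pla2g2e from the hair follicle, and that of Pla2g4e as an acyltransferase that makes the precursors of N-acyl ethanolamines.

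The promoters of the 2 genes with the largest ratio of highest to lowest group mean, Pla2g4e and Pla2g2e, are printed. Beside them stands that of Pla2g4f, a neighbour of Pla2g4e on chromosome 2 that varied less by this ratio. They are RefSeq windows of assembly GRCm38.p6, from 250 bases before to 50 bases after the annotated start, written 5′ to 3′ on the strand of the gene. Capitals mark matches to TGANTCA, the core site of AP-1 factors, or to one of the hexamers AGGTCA or AGTTCA or GGGTCA or GGTTCA, of which vitamin D receptor elements are composed. Both strands were searched, and the 2 motifs can share bases. The windows lie at chr2:120245286-120245585 (minus strand, Pla2g4e), chr4:138877692-138877991 (plus strand, Pla2g2e) and chr2:120314116-120314415 (minus strand, Pla2g4f).
Pla2g4e: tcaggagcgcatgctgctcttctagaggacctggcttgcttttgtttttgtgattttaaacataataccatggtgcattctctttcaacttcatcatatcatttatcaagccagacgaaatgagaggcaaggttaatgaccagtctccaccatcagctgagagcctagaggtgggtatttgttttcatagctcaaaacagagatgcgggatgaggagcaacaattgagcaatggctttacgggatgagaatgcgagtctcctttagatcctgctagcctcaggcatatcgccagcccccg
Pla2g2e: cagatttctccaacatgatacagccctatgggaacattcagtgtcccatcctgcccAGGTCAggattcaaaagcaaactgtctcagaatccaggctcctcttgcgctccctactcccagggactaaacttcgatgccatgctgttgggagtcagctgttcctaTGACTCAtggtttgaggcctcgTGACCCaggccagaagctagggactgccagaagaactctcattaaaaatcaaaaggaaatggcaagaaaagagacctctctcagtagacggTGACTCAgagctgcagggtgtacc
Pla2g4f: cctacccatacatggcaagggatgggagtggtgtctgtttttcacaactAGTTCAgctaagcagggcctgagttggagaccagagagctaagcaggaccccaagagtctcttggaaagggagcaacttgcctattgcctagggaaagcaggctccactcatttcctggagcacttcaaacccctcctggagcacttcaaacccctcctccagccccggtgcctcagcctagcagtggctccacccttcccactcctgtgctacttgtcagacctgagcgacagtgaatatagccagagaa

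RefSeq windows were found for 6 of the 7 genes, with 2 windows for Pla2g4a. The window of Pla2g2e held TGACTCA at positions −87 and 27, counted from the start site, and a hexamer at −194 and at −65. None of the other windows held TGANTCA, which occurs in 7.81% of the 32851 promoter windows of the table. The hexamers occur in 43.7% of all windows, and among the listed genes they were present in those of Pla2g2e, Pla2g4a, Pla2g4d and Pla2g4f. A direct repeat of the hexamers with 3 bases between them, the classical arrangement of a vitamin D response element, occurs in 0.0396% of all windows and in none of these. TATAAA (13.6% of windows, both strands) was present in 1 window of Pla2g4a and in that of Pla2g4d. GGGTGGG (17.5% of windows, both strands) was present 2 times in the window of Pla2g2f, and the window of Pla2g4e held none of the motifs searched. These matches describe the letters of the windows and are not binding sites.

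The libraries were first set against their labels. Vdr averaged 68.0 FPKM in control and 83.5 in the libraries labelled DKO at P36, and 40.5 and 48.1 at 6 months, so the deleted gene was not lower under its label. Med1 was lower at P36 (log2 fold change −0.55, limma adjusted p = 0.0083), while its value of −0.26 at 6 months did not pass (adjusted p = 0.13). How much of each transcript lies outside the floxed part was not looked at, and the groups are therefore called by their labels throughout. Epidermal identity was checked by 8 measured markers of suprabasal and granular keratinocytes, such as Krt1 and Krt10, whose summed level was at least 2980 FPKM in every library. A list of 15 hair follicle markers summed to 24900 to 30100 FPKM in control and 10800 to 14600 in libraries labelled DKO at P36, but to 105 to 241 and 47.2 to 80.8 at 6 months. Most of the 6-month sum was Gata3, which is not limited to the follicle (158 FPKM in control and 43.6 in libraries labelled DKO). The other 14 markers summed to 29.3, 17.2 and 20.6 FPKM in control at 6 months and to 11.9, 12.9 and 38.3 in libraries labelled DKO, which overlap. At P36, skeletal muscle markers summed to 9.89 to 21.3 FPKM in control and 112 to 495 in libraries labelled DKO. Adipocyte markers at that age summed to 32.1 to 67.4 and 414 to 569 FPKM. Their part in the P36 differences was not tested. Replicate 3 labelled DKO at 6 months stood apart from the other 2 in markers of other tissues. Its sums were 131 FPKM for skeletal muscle (12.2 and 3.81 in replicates 1 and 2) and 982 for dermal fibroblasts (311 and 393). Without it, the same 3 phospholipases as in the full fit were called at 6 months (Pla2g2e 0.84, Pla2g4b 1.24 and Pla2g4e 3.59 on the log2 scale). RNA from 12 libraries of a mixed tissue cannot tell fewer cells of a type from less RNA per cell.

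Differences were fitted with limma on log2(FPKM + 1), for each age on its own 6 libraries, and p-values were adjusted over all genes tested by the Benjamini-Hochberg method. Calls were made at an adjusted p below 0.05, fold changes are libraries labelled DKO minus control on this log2 scale, and this scale understates the change of low genes. At P36, 23.3% of 12660 genes were called (18.0% higher and 5.32% lower; in number 2949, but 1662 without replicate 2 and 1697 without replicate 3 labelled DKO), and of the 6 listed phospholipases that passed the filter of 1 FPKM in at least 3 libraries, 2 were higher and 1 was lower. At 6 months, 41.3% of 12594 genes were called (23.2% higher and 18.2% lower), and 3 of the 6 were higher and none lower. The median fold change of the 6 was 0.45 at P36 and 0.55 at 6 months, beside 0.09 and 0.04 over all genes tested. The genotype effect itself differed between ages, in a fit of all 12 libraries, for 34.9% of 13280 genes (13.8% with a higher effect at 6 months and 21.1% with a lower one), and for 3 of the 6, each with a higher effect at 6 months. Pla2g4d passed no filter at either age. With other scalings, the balance of all genes moved while the listed genes kept their directions: higher genes made up 77.1% of the calls at P36, but 58.9% after median-ratio scaling and 71.4% with totals computed without keratin and cornified envelope genes. At 6 months they made up 56.0%, and 50.6% and 34.9% under the same alternatives, and in the difference between ages 39.5%, 54.6% and 26.9%. The median of all genes shifted from 0.09 to −0.03 at P36 under median-ratio scaling and from 0.04 to −0.13 at 6 months without the keratin totals.

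Among the secreted enzymes, Pla2g2f was the most abundant of the 7 genes in every library. Its control values at P36 were 170.0, 114 and 125 FPKM, and the libraries labelled DKO had 183, 176 and 239. At 6 months control had 277, 455 and 379 FPKM and the libraries labelled DKO 498, 468 and 423. The P36 groups did not overlap and the 6-month groups did. The mean at P36 was 136 ± 29.7 FPKM in control and 199 ± 34.6 in libraries labelled DKO (SD, n = 3), a fold change of 0.55 (SE 0.18, limma adjusted p = 0.0566) that was not called. Leaving out control replicate 1 at P36, the highest control, gave 0.72 with an adjusted p of 0.0223. At 6 months the means were 370.0 ± 89.1 and 463 ± 37.6 FPKM (fold change 0.35, 95% interval −0.08 to 0.78, adjusted p = 0.167). Both groups at 6 months lay above both at P36. The genotype effects at the 2 ages differed by −0.20 (95% interval −0.80 to 0.40, adjusted p = 0.591).

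Pla2g2f made up 43.9% to 60.4% of the summed FPKM of the 7 genes in control libraries at P36 and 64.7% to 69.7% in those labelled DKO. At 6 months the share was 74.2% to 87.2% in control and 79.2% to 79.7% in those labelled DKO. Markers of suprabasal keratinocytes, the cells in which its enzyme is known, moved in both directions at P36 (4 of 8 tested higher, 2 lower; summed level 2980 to 4030 FPKM in control and 6940 to 9360 in libraries labelled DKO). At 6 months they also did so (4 higher, 3 lower; 15700 to 22800 and 11800 to 15100 FPKM). Over all genes tested, 18.0% were called higher and 5.32% lower at P36, and 23.2% and 18.2% at 6 months. The part of these cells in the values of Pla2g2f was not tested.

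Pla2g2e, the secreted enzyme of the follicle, was higher at P36 than at 6 months. At P36 control libraries had 50.9, 33.1 and 92.9 FPKM, and those labelled DKO 31.6, 29.4 and 31.9. At 6 months control libraries had 2.65, 4.75 and 4.39 FPKM, and those labelled DKO 7.64, 7.64 and 5.23. No 2 of the 4 groups overlapped: control at P36 was highest, then the libraries labelled DKO at P36, then those at 6 months, and control at 6 months was lowest. The P36 means of 59.0 ± 30.7 and 31.0 ± 1.35 FPKM gave a fold change of −0.78 (SE 0.31, adjusted p = 0.112), which was not called. Without control replicate 2, the lowest control, it was −1.13 (adjusted p = 0.0165). At 6 months the means of 3.93 ± 1.12 and 6.84 ± 1.39 FPKM gave 0.68 (SE 0.22, adjusted p = 0.0404), a call that was lost in 8 of 14 alternatives. Leaving out control replicate 1 or 3, or replicate 1 or 2 labelled DKO, gave adjusted p-values of 0.0785, 0.0629, 0.12 and 0.129. The effect differed between ages by 1.46 (SE 0.42, adjusted p = 0.0205), and this call held under all 19 alternatives.

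Hair follicle markers moved with Pla2g2e at P36, when 14 of the 15 fell in the libraries labelled DKO, with a median fold change of −1.11. Over all genes tested, 18.0% were called higher and 5.32% lower at P36, and 23.2% and 18.2% at 6 months. At 6 months the means of the markers had no common direction: 8 of the 15 had a higher mean in libraries labelled DKO and 7 a lower one. The higher means of Krt25, Krt27, Krt71, Krt31, Krt34 and Hoxc13 rested on replicate 3 labelled DKO, the library that stood apart. Krt25, for instance, had 0, 0.28 and 4.59 FPKM in replicates 1, 2 and 3 labelled DKO. Those of Krt28 and Krt73 did not rest on replicate 3. Only 6 of the 15 passed the filter at that age, of which Gata3, Lef1 and Msx2 fell and none rose. Zeros occurred in both genotypes at 6 months. In control Krt34 was listed at 0 in 2 libraries and Krt73 in 1, and in libraries labelled DKO Shh was listed at 0 in 3, Krt35 in 2, and Krt25, Krt31, Krt34 and Krt86 in 1 each. The part of the follicle in the values of Pla2g2e was not tested.

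**Figure D1:**
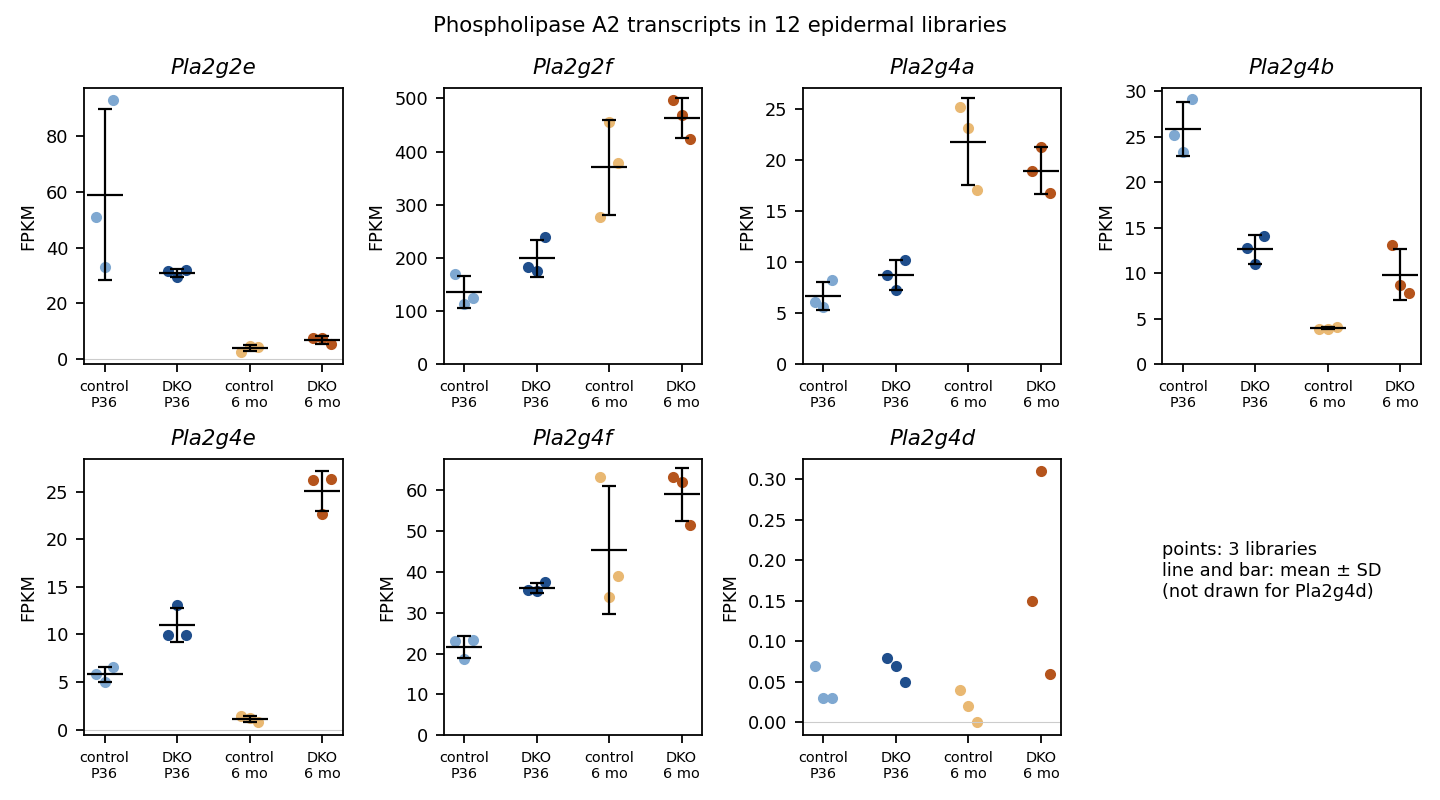
Level of each of the 7 phospholipases in FPKM (vertical axes, each with its own scale) by group (horizontal axes); points are the 3 libraries, and lines with bars are the mean and SD, which are not drawn for Pla2g4d. Pla2g4e was lowest in control and highest in libraries labelled DKO at 6 months, whereas Pla2g2e and Pla2g4b were highest in control at P36.

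Pla2g4e showed the widest gap between genotypes as a ratio of means. Its enzyme transfers an acyl chain to phosphatidylethanolamine. Control libraries at P36 had 5.89, 4.96 and 6.55 FPKM and those labelled DKO 9.93, 13.0 and 9.91. Control libraries at 6 months had 1.39, 1.21 and 0.76 FPKM and those labelled DKO 26.2, 22.6 and 26.3. The 4 groups did not overlap, with control lowest at 6 months and the libraries labelled DKO highest at that age. At P36 the means were 5.80 ± 0.799 and 11 ± 1.80 FPKM (1.89-fold, log2 fold change 0.81, SE 0.14, adjusted p = 0.00549). At 6 months they were 1.12 ± 0.324 and 25.1 ± 2.09 FPKM (22.4-fold, log2 fold change 3.63, SE 0.15, adjusted p = 4.68e-05), above 99.8% of the genes tested. The difference between ages was 2.82 (SE 0.21, adjusted p = 1.77e-05). All 3 calls held in every alternative run.

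Pla2g4b, whose enzyme is a cytosolic phospholipase with a broad choice of substrate, was lower in libraries labelled DKO at P36 and higher at 6 months. Control libraries at P36 had 25.2, 23.3 and 29.1 FPKM, and those labelled DKO 12.8, 11 and 14.1. Control libraries at 6 months had 3.88, 3.88 and 4.12 FPKM, and those labelled DKO 13.1, 8.69 and 7.81. The genotypes did not overlap at either age, and the libraries labelled DKO at the 2 ages overlapped with each other. At P36 the means were 25.9 ± 2.98 and 12.6 ± 1.58 FPKM (0.488-fold, log2 fold change −0.98, SE 0.12, adjusted p = 0.0015). At 6 months they were 3.96 ± 0.139 and 9.86 ± 2.83 FPKM (2.49-fold, log2 fold change 1.10, SE 0.18, adjusted p = 0.00355). The difference between ages was 2.08 (SE 0.23, adjusted p = 0.000135), and all 3 calls held in every alternative run. Pla2g4b shares sequence with a readthrough transcript with Jmjd7, and its end overlaps Sptbn5, so where the authors' counting could split reads its level is uncertain.

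**Figure D2:**
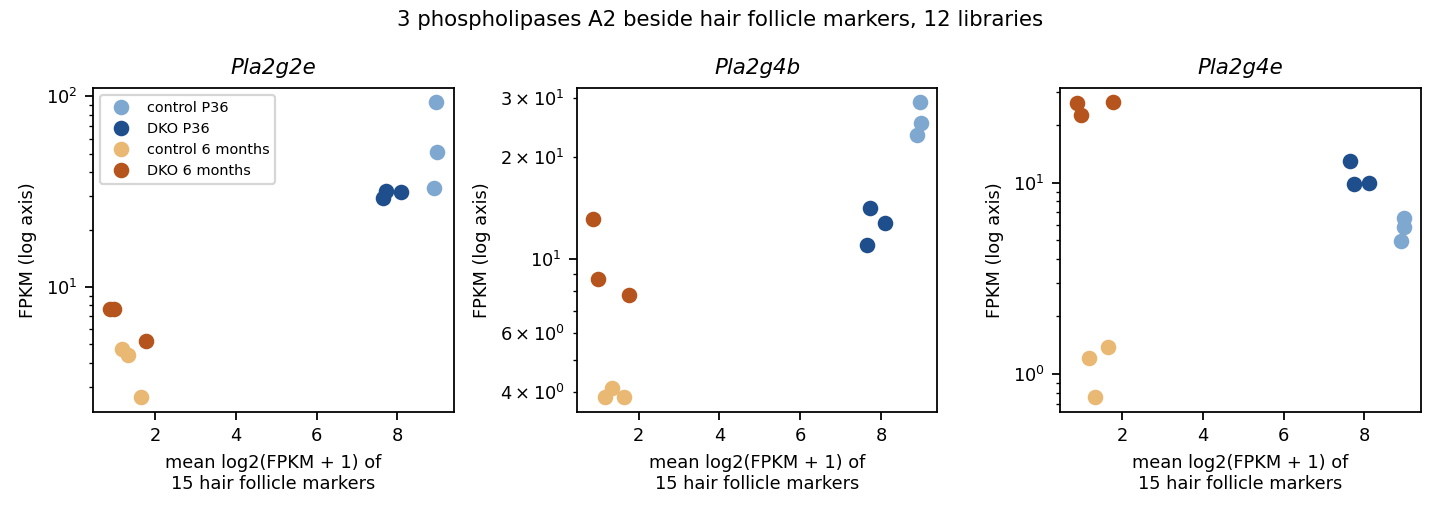
Level of 3 phospholipases in FPKM (vertical log axes) against the mean log2(FPKM + 1) of 15 hair follicle markers (horizontal axes) in 12 libraries; points are libraries, coloured by group. The ages lie far apart on the horizontal axis, and at 6 months the libraries labelled DKO lie above control for all 3 genes.

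Hair follicle markers also fell with Pla2g4b at P36 (14 of 15, as above), when Pla2g4e was higher. At 6 months, when both genes were higher in libraries labelled DKO, the summed level of the 14 markers other than Gata3 overlapped between genotypes. Not every single marker did: Lef1 and Msx2 were called lower. Of those not tested, Shh was lower and Krt73 higher in libraries labelled DKO without overlap, all at low levels. Markers of the infundibulum, the upper opening of the follicle, moved with Pla2g4e at 6 months, when 5 of 5 rose with a median fold change of 2.1, against 1 of 5 at P36. Krt79, one of them, was at 151 FPKM in control and 1010 in libraries labelled DKO at 6 months. Sebaceous gland markers rose for 6 of 9 at P36 and 5 of 9 at 6 months, and 5 of 7 basal keratinocyte markers fell at 6 months. These counts stand beside 18.0% of all genes called higher and 5.32% lower at P36, and 23.2% and 18.2% at 6 months. The part of these cells in the level of Pla2g4e or Pla2g4b was not tested.

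Pla2g4f, another cytosolic enzyme of the chromosome 2 cluster, was the most abundant cytosolic gene in the libraries labelled DKO at P36 and in all at 6 months. At P36 control libraries had 23.1, 18.6 and 23.4 FPKM and those labelled DKO 35.5, 35.4 and 37.6. At 6 months control libraries had 63.4, 33.9 and 39.0 FPKM and those labelled DKO 63.4, 62.1 and 51.6. The genotypes did not overlap at P36 and overlapped at 6 months, when control replicate 1 stood with the libraries labelled DKO. At P36 the means of 21.7 ± 2.73 and 36.1 ± 1.22 FPKM gave a log2 fold change of 0.72 (SE 0.11, adjusted p = 0.00293), and the call held in every alternative run. The 6-month means of 45.4 ± 15.8 and 59.0 ± 6.46 FPKM gave 0.42 (95% interval −0.11 to 0.94, adjusted p = 0.175), which was not called. Leaving out control replicate 1 gave 0.68 with an adjusted p of 0.0101. The difference between ages was −0.30 (adjusted p = 0.406), so the called effect at P36 is not shown to differ from that at 6 months.

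Pla2g4a encodes the best known cytosolic phospholipase A2, which prefers phospholipids that carry arachidonic acid. At P36 control libraries had 6.15, 5.63 and 8.22 FPKM and those labelled DKO 8.74, 7.31 and 10.3. At 6 months control libraries had 25.3, 23.2 and 17.1 FPKM and those labelled DKO 19.0, 21.3 and 16.8. The genotypes overlapped at both ages, and both groups at 6 months lay above both at P36. The fold change was 0.35 at P36 (95% interval −0.02 to 0.73, adjusted p = 0.168) and −0.18 at 6 months (95% interval −0.56 to 0.20, adjusted p = 0.404). The difference between ages of −0.53 was not called (adjusted p = 0.112), but was with the replicate number as a block (adjusted p = 0.0351) and without control replicate 3 at 6 months (−0.69, adjusted p = 0.0445).

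Pla2g4d, an enzyme described in psoriatic skin, stayed at or under 0.31 FPKM in all 12 libraries and was not tested. Its highest values were 0.15, 0.31 and 0.06 FPKM in the libraries labelled DKO at 6 months, where control had 0.04, 0.02 and 0. At P36 the values were 0.07, 0.03 and 0.03 in control and 0.08, 0.07 and 0.05 in libraries labelled DKO.

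**Figure D3:**
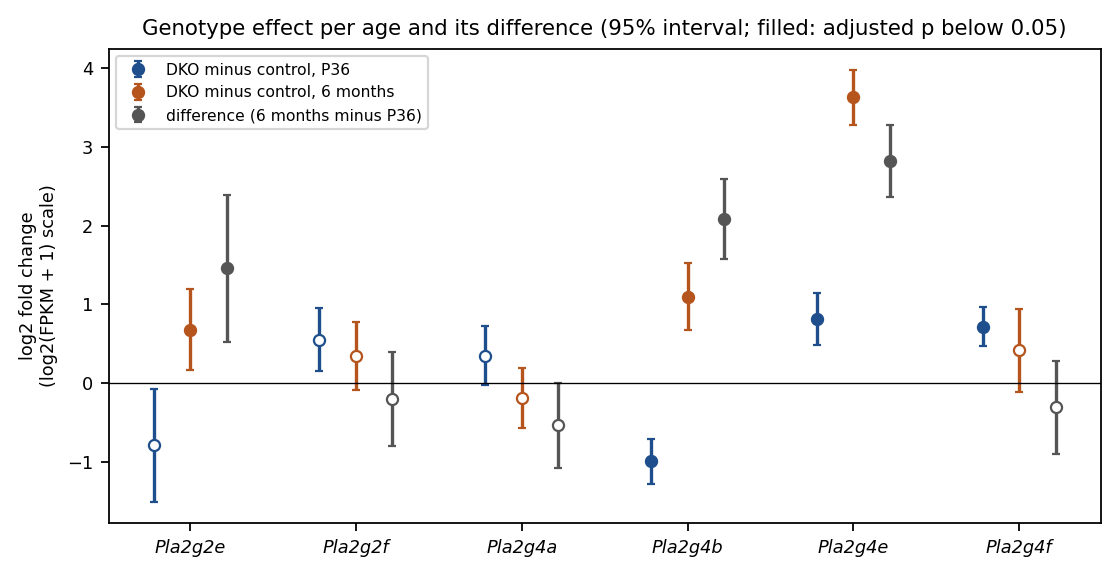
Log2 fold change of libraries labelled DKO over control at P36 and at 6 months, and the difference between these effects (vertical axis, log2(FPKM + 1) scale), for the 6 phospholipases that were tested (horizontal axis); bars are 95% intervals and filled points have an adjusted p below 0.05. Pla2g2e, Pla2g4b and Pla2g4e have filled differences, of 1.46, 2.08 and 2.82.

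The make-up of the cytosolic transcripts followed from these levels. Pla2g4b made up 41.7%, 44.4% and 43.3% of the summed FPKM of the 5 cytosolic genes in control at P36, and 19.0%, 16.4% and 19.6% in libraries labelled DKO. Pla2g4e made up 1.48%, 1.95% and 1.25% in control at 6 months, and 21.5%, 19.7% and 25.7% in libraries labelled DKO. The genotypes did not overlap in either share. The share of Pla2g4a at 6 months was 26.9%, 37.3% and 28.0% in control and 15.6%, 18.5% and 16.3% in libraries labelled DKO, although its own level did not separate the genotypes. These shares describe transcripts, not enzyme.

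**Figure D4:**
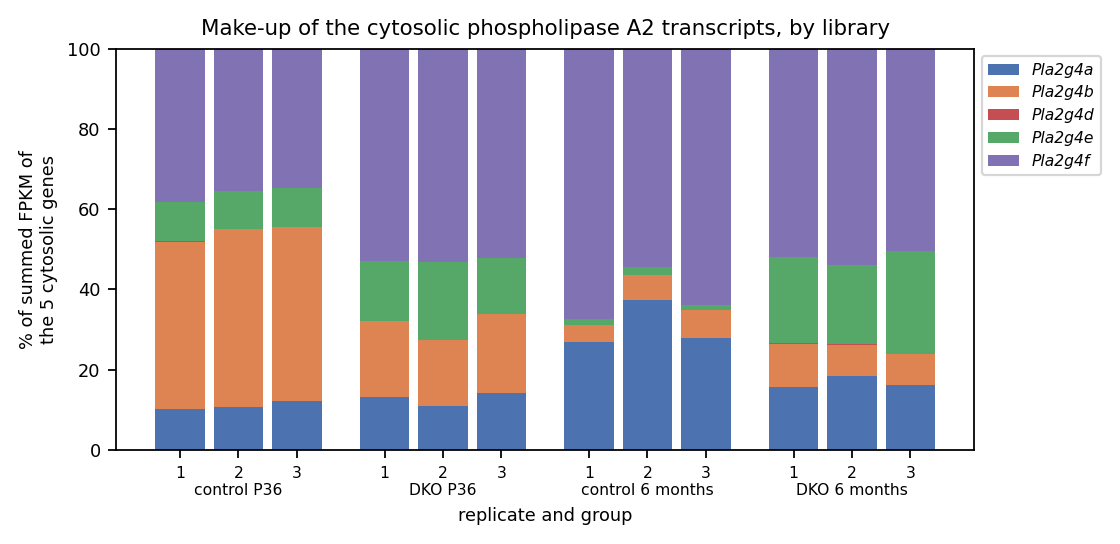
Share of each cytosolic gene in the summed FPKM of the 5 cytosolic genes (vertical axis, %) in each library (horizontal axis, replicates by group). Pla2g4b holds over 40% in control at P36 only, and Pla2g4e about 20% or more in libraries labelled DKO at 6 months against under 2% in control.

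Over the 12 libraries, which fall into 4 groups and share their scaling, log2 levels of Pla2g2e and Pla2g4b varied together (Pearson's r = 0.91), as did those of Pla2g2f and Pla2g4a (r = 0.89). Pla2g2e and Pla2g4a ran against each other (r = −0.90), and Pla2g4e had no r beyond 0.42 with any of the others. Among 12046 genes, those most like Pla2g4e in level were Socs5 (r = 0.976), Slc39a2 (0.973) and Slco1a5 (0.967). Those most like Pla2g2e were Capn12 (0.989), Cpsf4 (0.989) and Chchd7 (0.983). For Pla2g4b they were Zpr1 (0.976), G6pdx (0.976) and Fam214b (0.975), and for Pla2g2f Ceacam19 (0.986), Sft2d2 (0.986) and P2ry4 (0.985). For Pla2g4a they were Stxbp5 (0.987), Spink5 (0.982) and Atp10b (0.974), and for Pla2g4f Tmlhe (0.968), Birc3 (0.962) and Sowahc (0.954). These values are descriptions, with no test.

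In the RefSeq order of assembly GRCm38.p6, Pla2g4b, Pla2g4e, Pla2g4d and Pla2g4f lie near each other on chromosome 2, and Pla2g2f and Pla2g2e in a cluster of secreted phospholipases on chromosome 4, while Pla2g4a lies alone on chromosome 1. Genes in or beside the clusters were named after their values were seen. They were Jmjd7 and Vps39 beside the cluster on chromosome 2, Ehd4 between Pla2g4b and Pla2g4e, and Otud3 beside the cluster on chromosome 4. None of the 4 was called at either age, beside 23.3% of all genes called at P36 and 41.3% at 6 months. Pla2g2d, which lies between Pla2g2f and Pla2g2e, was called higher at 6 months (1.11, limma adjusted p = 0.00193). Jmjd7, next to Pla2g4b, had a fold change of −0.32 at P36 (adjusted p = 0.181).

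Other genes with phospholipase A2 activity were examined as a list of 17. Its counts stand beside 18.0% of all genes called higher and 5.32% lower at P36, and 23.2% and 18.2% at 6 months. At P36 8 were tested and 2 rose, and the median fold change was 0.36. Pla2g7, which encodes the secreted enzyme that inactivates platelet-activating factor, rose from 6.70 to 22.1 FPKM (1.64, adjusted p = 0.00726). Pnpla8, a mitochondrial and peroxisomal enzyme, had a call at P36 (0.36, adjusted p = 0.0361) that was lost in 5 of the 6 fits that left out 1 library (all but that without replicate 2 labelled DKO), with adjusted p-values between 0.0611 and 0.139, so that 1 gene was then called. At 6 months 10 were tested, of which 3 rose and 2 fell with a median of 0.18. Pla2g7 (5.70 to 22.4 FPKM, 1.75, adjusted p = 0.00323), Pnpla8 (23.0 to 44.1, 0.91, adjusted p = 0.0013) and Pla2g2d, a secreted enzyme of dendritic cells and macrophages (2.06 to 5.64, 1.11, adjusted p = 0.00193), rose. Pla2g3, another secreted enzyme, fell from 14.5 to 5.71 FPKM (−1.21, adjusted p = 0.00104), and Plaat3 from 20.5 to 10.8 (−0.89, adjusted p = 0.00526). Macrophage, neutrophil and mast cell markers were higher alongside (8 of 11 at P36, 1 lower; summed 77.8 to 150.0 FPKM in control and 332 to 476 in libraries labelled DKO). At 6 months S100a8, S100a9 and Cpa3 rose, Csf1r fell and 7 were not called. The sums at that age were 100 to 166 FPKM in control and 316 to 731 in libraries labelled DKO. S100a8 (means of 6.71 and 143 FPKM) and S100a9 (11.3 and 174) made up most of the sum in replicates 1 and 2 labelled DKO only. The macrophage marker Adgre1 had means of 3.65 and 3.78 FPKM. Replicate 3 labelled DKO at 6 months was highest in Pla2g7 (33.5 FPKM, against 16.8 and 17.0) and in Lyz2, a macrophage marker (220 FPKM, against 37.1 and 58.2), and without it the fold change of Pla2g7 was 1.43 (adjusted p = 0.00206). None of these markers was listed at 0 in any library, and their part in Pla2g7 and Pla2g2d was not tested.

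The routes downstream of the phospholipases were counted by list. Over all genes tested, 18.0% were called higher and 5.32% lower at P36, and 23.2% higher and 18.2% lower at 6 months. For the cyclooxygenase and prostanoid enzymes, 6 of 13 tested rose and 1 fell at P36 (median 0.16), and 4 of 14 rose and 7 fell at 6 months (median −0.47). Ptges, the terminal prostaglandin E synthase, rose at P36 from 6.65 to 31.4 FPKM (2.08, adjusted p = 0.000609). Ptgds, a prostaglandin D synthase, fell at both ages (126 to 52.0 FPKM, −1.28, adjusted p = 0.00125; 7.33 to 1.69, −1.64, adjusted p = 0.000753). The other, Hpgds, fell at 6 months from 29.6 to 8.57 FPKM (−1.68, adjusted p = 0.00017), as did Ptgs1, the constitutive cyclooxygenase, from 122 to 51.9 (−1.24, adjusted p = 0.0022). At P36 Ptgs1 had the opposite call, from 14.9 to 29.6 FPKM (0.98, adjusted p = 0.0185), which was lost without replicate 2 or 3 labelled DKO (adjusted p = 0.0512 and 0.0708). The effect differed between ages for 7 of 14 genes, each with a lower effect at 6 months, beside 21.1% of all genes with a lower effect. Without control replicate 1 or replicate 2 labelled DKO, 7 genes in all were called at 6 months.

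For the lipoxygenase and leukotriene enzymes, 5 of 9 rose and 2 fell at P36 (median 0.73), whereas none rose and 3 of 9 fell at 6 months (median −0.39). Among all genes, 18.0% were called higher and 5.32% lower at P36, and 23.2% and 18.2% at 6 months. Alox5ap, the protein that presents arachidonic acid to 5-lipoxygenase in leukocytes, rose at P36 from 3.84 to 22.5 FPKM (2.26, adjusted p = 0.000376). Alox12b, the lipoxygenase of the epidermal barrier, rose from 12.9 to 41.5 FPKM (1.67, adjusted p = 0.00592), and at 6 months had 102 FPKM in control and 67.5 in libraries labelled DKO (−0.59, adjusted p = 0.0561). Alox5, Alox12 and Ltc4s fell at 6 months by 1.16, 1.00 and 1.22 on the log2 scale. At P36 Alox12 was also called lower (−0.84, adjusted p = 0.0138; 0.0575 without replicate 2 labelled DKO), whereas Ltc4s was called higher (1.22, adjusted p = 0.00518). Alox5 was called higher too (0.73, adjusted p = 0.0222), but not without control replicate 1 or 3 or replicate 2 or 3 labelled DKO (adjusted p between 0.0512 and 0.0744). The count of calls was 4 at P36 without replicate 2 labelled DKO, and 5 at 6 months without replicate 3 labelled DKO. In that 6-month fit Alox8 was called higher (1.34, limma adjusted p = 0.00626) and Alox5ap lower (−0.60, adjusted p = 0.0266). At P36 Alox8 was called lower (−1.06, adjusted p = 0.0015), but not in the joint fit (adjusted p = 0.0835). Langerhans and T cell markers stood beside these genes with 5 of 7 higher and none lower at P36 (summed 258 to 324 FPKM in control and 494 to 587 in libraries labelled DKO), and 1 higher and 2 lower at 6 months (1040 to 1300 and 639 to 815). None of these 7 was listed at 0, and their part was not tested.

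Of the eicosanoid receptors, 7 passed the filter at P36, and Ltb4r2 (0.92, adjusted p = 0.0105) and Ltb4r1 (0.85, adjusted p = 0.0137), both receptors of leukotriene B4, rose. Without replicate 3 labelled DKO the adjusted p of Ltb4r1 was 0.0515. At 6 months limma called 0 of 8, and 2 had an unadjusted p below 0.05. Without control replicate 1 it called 2, and without replicate 3 labelled DKO 1. Lysophospholipid enzymes and receptors were mixed at both ages: 4 of 22 rose and 3 fell at P36, and 4 rose and 5 fell at 6 months. Beside both lists, 18.0% of all genes were called higher and 5.32% lower at P36, and 23.2% and 18.2% at 6 months. Lpcat3, which puts arachidonic acid back into lysophospholipids, rose at P36 (39.4 to 68.8 FPKM, 0.78, adjusted p = 0.00244), and Agpat4 and Mboat1 fell at 6 months by 1.56 and 1.5 on the log2 scale.

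The N-acyl ethanolamine route, to which the enzyme of Pla2g4e supplies precursors, had 2 of 9 tested genes higher and none lower at P36 (median 0.29), where 18.0% of all genes were called higher and 5.32% lower. Naaa, an amidase that degrades these lipids, rose from 2.75 to 11.7 FPKM (1.76, adjusted p = 0.000226). Faah, the other amidase, rose from 12.5 to 20.5 FPKM (0.65, adjusted p = 0.0207), but its adjusted p was 0.0572, 0.0815 and 0.0771 without control replicate 3 and without replicates 2 and 3 labelled DKO. At 6 months 4 of 10 rose and none fell (median 0.38), beside 23.2% and 18.2% of all genes, and the effect differed between ages for 6 of 10, 3 in each direction. The 4 that rose at 6 months were Fabp5, an intracellular lipid carrier (267 to 1190 FPKM, 2.14, adjusted p = 0.000168), Gde1 (15.9 to 43.7, 1.39, adjusted p = 0.00116), Napepld (2.95 to 6.12, 0.86, adjusted p = 0.00847) and Gdpd1 (8.36 to 16.9, 0.90, adjusted p = 0.0123). The last 3 encode enzymes that release N-acyl ethanolamines from their precursors. This list, too, was drawn up with earlier results of these data known.

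For the supply of arachidonic acid by other enzymes, 4 of 10 rose and 1 fell at P36 (median −0.13), and 3 of 11 rose and 1 fell at 6 months (median −0.32). Of the 4, Elovl5 lost its P36 call without any 1 library except replicate 1 labelled DKO (limma adjusted p between 0.0529 and 0.161). It also lost it in all other alternatives but the pseudocount of 0.1 (adjusted p between 0.0543 and 0.0986). The shares of all genes were 18.0% higher and 5.32% lower at P36, and 23.2% and 18.2% at 6 months. Mgll, which frees the fatty acid from monoacylglycerol, rose at both ages (75.8 to 225 FPKM, 1.5, adjusted p = 0.00462; 75.9 to 330.0, 2.1, adjusted p = 0.000295). Acsl4, which activates arachidonic acid, also rose at both (0.80, adjusted p = 0.00611; 1.44, adjusted p = 0.00199). Daglb, a diacylglycerol lipase, fell at 6 months from 12.8 to 2.43 FPKM (−2.01, adjusted p = 0.0001). Adipocyte markers rose at P36 for 6 of 6 tested, from sums of 32.1 to 67.4 FPKM to sums of 414 to 569, and skeletal muscle markers for 9 of 10, from 9.89 to 21.3 to 112 to 495, while at 6 months limma called 0 of 6 tested in either list (1 adipocyte and 0 muscle markers had an unadjusted p below 0.05). Their part in Mgll or the other P36 values was not tested.

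**Figure D5:**
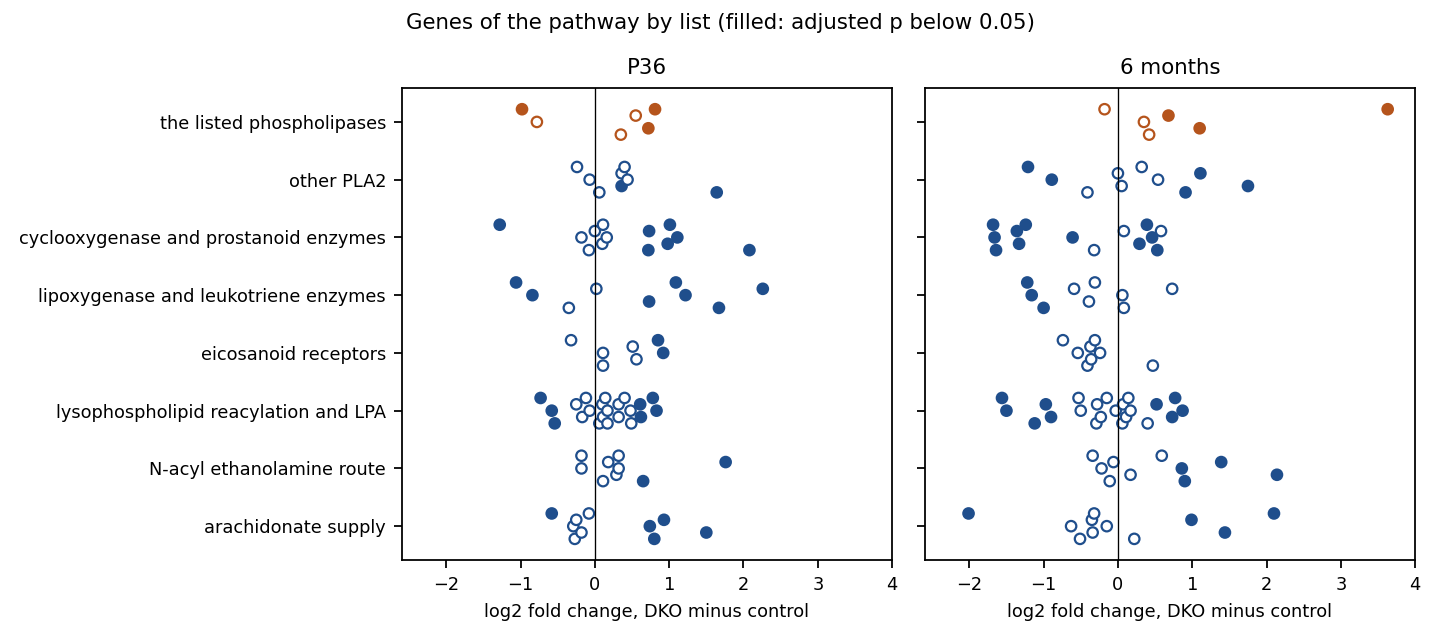
Log2 fold change of libraries labelled DKO over control (horizontal axes, log2(FPKM + 1) scale) at P36 and 6 months for each gene tested in the listed phospholipases and 7 pathway lists (vertical axis); filled points have an adjusted p below 0.05. Pla2g4e at 6 months, at 3.63, lies to the right of every other gene drawn.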

How the data were processed

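For either age there is a single table, deposited by the authors, that lists FPKM for every gene and library and, per the file headers, their own log2 ratio and p-values and q-values, which were not used here. The tools named in the submitters' processing notes are HISAT2 2.1.0 and RSEM 1.2.8, and the builds named there, GRCh38 and hg38, are human although the samples are from mouse; the only coordinates given are those of the RefSeq promoter windows (GRCm38.p6). Sample titles give the age. Columns were matched to an age by the name of their table, since column headers hold only genotype and replicate number. Of the Entrez numbers, 19343 of 19392 (P36) and 17712 of 17750 (6 months) matched a RefSeq symbol. FPKM columns summed to 446617 to 554382.

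In R 4.3.3, limma 3.58.1 with a variance trend was fitted to log2(FPKM + 1) of genes that reached 1 FPKM in 3 or more libraries, per age, and over all 12 libraries for the difference between ages. The script was tested on simulated data. The members and lists were chosen with earlier results of these data known. Named genes are the 7 phospholipases, up to 4 genes per list with the smallest adjusted p per age, other phospholipases A2 with values, and the 3 genes most like each phospholipase; the text gives part of them. Alternatives were a pseudocount of 0.1, no filter, a filter of 5 FPKM, 2 scalings, a constant variance prior, the replicate block, a joint fit and leaving out each library.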

Additional observations from a re-analysis of the deposited data

Results flagged for a closer look

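The genotype effect (libraries labelled DKO minus control, log2 scale) at 6 months minus that at P36 passed the test of the difference itself for 3 of the listed phospholipases: Pla2g4e (2.82), Pla2g4b (2.08) and Pla2g2e (1.46). Among the other phospholipases A2, the difference was 0.67 for Pla2g2d, 0.54 for Pnpla8, −1.14 for Pla2g3 and −1.29 for Plaat3. The call for Pla2g2d was lost on leaving out any of 8 of the 12 libraries, with adjusted p-values between 0.0547 and 0.0914. It was also lost with a pseudocount of 0.1, with no filter and with totals without keratin (limma adjusted p = 0.0581, 0.0586 and 0.0723). The call for Pnpla8 was lost with totals without keratin (limma adjusted p = 0.0576). Groups of 3 libraries are too small for the test of a single sample standing apart.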

How the results depend on the processing

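Among the phospholipases and the named list genes, which alone were followed through the alternatives, no called gene reversed its direction. The median of all genes changed sign with the scaling (−0.03 at P36 and 0.07 between ages with median-ratio scaling, −0.13 at 6 months with totals without keratin). The calls of Pla2g4b and Pla2g4e at both ages and between ages, of Pla2g4f at P36 and of Pla2g2e between ages held under all alternatives; the cause of the changes that follow was not tested. The call of Pla2g2e at 6 months was lost with no filter (adjusted p = 0.0707), with totals without keratin (0.0898), with the replicate block (0.0513), in the joint fit (0.084) and without any of 4 libraries. Genes called in lists of few members moved as follows. With no filter, eicosanoid receptors had 5 calls at P36 (2 in the report) and 1 at 6 months (0 in the report), and with a filter of 5 FPKM 1 at P36 and 2 between ages (4 in the report). Median-ratio scaling left 1 call for the other phospholipases A2 and 1 for the N-acyl ethanolamine route at P36, and gave the receptors 1 at 6 months. Totals without keratin left the other phospholipases A2 with 1 at P36, and gave the receptors 2 and arachidonate supply 8 at 6 months. The joint fit gave the receptors 3 at 6 months.

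The replicate numbers gave no clear sign of pairing: same-numbered libraries had correlated deviations of 0.13, −0.06 and −0.12 at P36 and −0.06, 0.03 and 0.18 at 6 months, and not every library correlated best with its own number. With 3 libraries per group, these correlations cannot exclude a pairing. With the replicate number as a block, 2 phospholipases were called higher and 1 lower at P36 (1963 and 644 of all genes), 2 higher at 6 months (2637 and 2225) and 3 higher and 1 lower between ages (1566 and 2657). The block left 1 call for the other phospholipases A2 at P36 and gave the receptors 1 at 6 months.

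Leaving out 1 library at a time gave 3 to 4 called phospholipases at P36, 2 to 3 at 6 months and 3 to 4 between ages. At P36 it gave 1662 to 2660 called genes, 1 to 2 in the N-acyl ethanolamine route, 1 to 3 receptors, 4 to 6 lipoxygenase enzymes and 1 to 2 other phospholipases A2. At 6 months it gave 7 to 9 cyclooxygenase enzymes, 0 to 2 receptors and 3 to 5 lipoxygenase enzymes, and between ages 2 to 5 genes of arachidonate supply. Depth is unknown, so the values of Pla2g4d, at or under 0.31 FPKM, carry no counting error.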
